A study of Mus musculus with 49 samples.

Results

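The 10 genes described here encode inhibitory receptors of T cells, ligands of such receptors, and a transcription factor linked to their expression: Pdcd1, Ctla4, Lag3, Havcr2, Tigit, Cd160, Btla, Cd274, Cd200, and Tox. They were taken by symbol from the RNA-seq tables, with the longest transcript where a symbol had several, and they are 10 of the 23992 gene symbols measured. CD8+ T cells were purified without antigen stimulation from spleens of mice of lines backcrossed to C57BL/6J. They were either left without IL-2 (0 hr) or cultured with human IL-2, a recombinant protein used at 500 IU/ml. Cultured cells were harvested after 4, 24, or 48 hr. No group was cultured without IL-2 for these times. In changes from 0 hr, described below as changes with IL-2, the effects of IL-2 and of time in culture cannot be told apart. In the Stat5a line, the KI cells came from mice homozygous for STAT5A Y694F, and in the Stat5b line from mice homozygous for STAT5B Y699F. In each case the tyrosine whose phosphorylation activates the protein is replaced by phenylalanine, in every cell of the animal, by CRISPR/Cas9 editing. WT cells came from WT mice of the same line, so that each line has its own WT controls, and the mice were adults of both sexes. The 2 lines, 2 genotypes, and 4 time points make 16 groups of 3 libraries each, but the third library of the Stat5a KI cells cultured for 4 hr, with 1028515 reads on the transcripts used, was left out, which gives 47 libraries with 17369112 to 60200653 reads. The labels do not say whether the libraries of a group came from separate animals, and p-values therefore measure the spread between these libraries, which may be technical.

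Checkpoint receptors restrain a T cell after it has been activated. PD-1 (Pdcd1) binds PD-L1 (Cd274) and recruits phosphatases that dampen antigen receptor and CD28 signals, CTLA-4 competes with CD28 for the CD80 and CD86 ligands, LAG-3 binds MHC class II, and TIM-3 (Havcr2), TIGIT, CD160, and BTLA bind ligands on neighbouring cells. Tox is a nuclear factor that maintains the exhausted state of CD8+ T cells under chronic stimulation, in which several of these receptors are expressed together. IL-2 acts through STAT5, which binds GAS motifs in DNA as a tyrosine-phosphorylated dimer.

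The libraries held the transcripts of CD8+ T cells and, at lower levels, those of other cells. RPKM, which scales reads to transcript length and library size, allows levels to be compared between genes. Cd8a was at least 81 RPKM in each of the 47 libraries, and no marker of CD8 T cell identity was called in any comparison of KI with WT cells (0 of 5). The summed RPKM of 8 B cell markers, led by Cd79a and Cd79b, had a median of 233 in Stat5b KI and 57.8 in Stat5b WT libraries at 0 hr. Cd79a itself had 44.8 ± 0.541 RPKM (SD, n = 3) in Stat5b KI and 2.85 ± 0.317 in Stat5b WT cells at 48 hr, and 38.6 ± 3.32 and 8.18 ± 4.39 in Stat5a KI and WT cells. The summed RPKM of 8 myeloid markers, led by Lyz2 in KI libraries, was 76 in Stat5b KI and 3.29 in Stat5b WT libraries at 48 hr, and that of 5 erythroid markers, led in those KI libraries by Hbb-bs, was 170 and 5.63. No marker on the lists was at 0 in any group. The EasySep kit used to purify the cells removes other cell types by negative selection, and these values are what its product held. B cells and myeloid cells also express some of the 10 genes, and their part in the comparisons of KI with WT cells below was not tested.

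**Figure D1:**
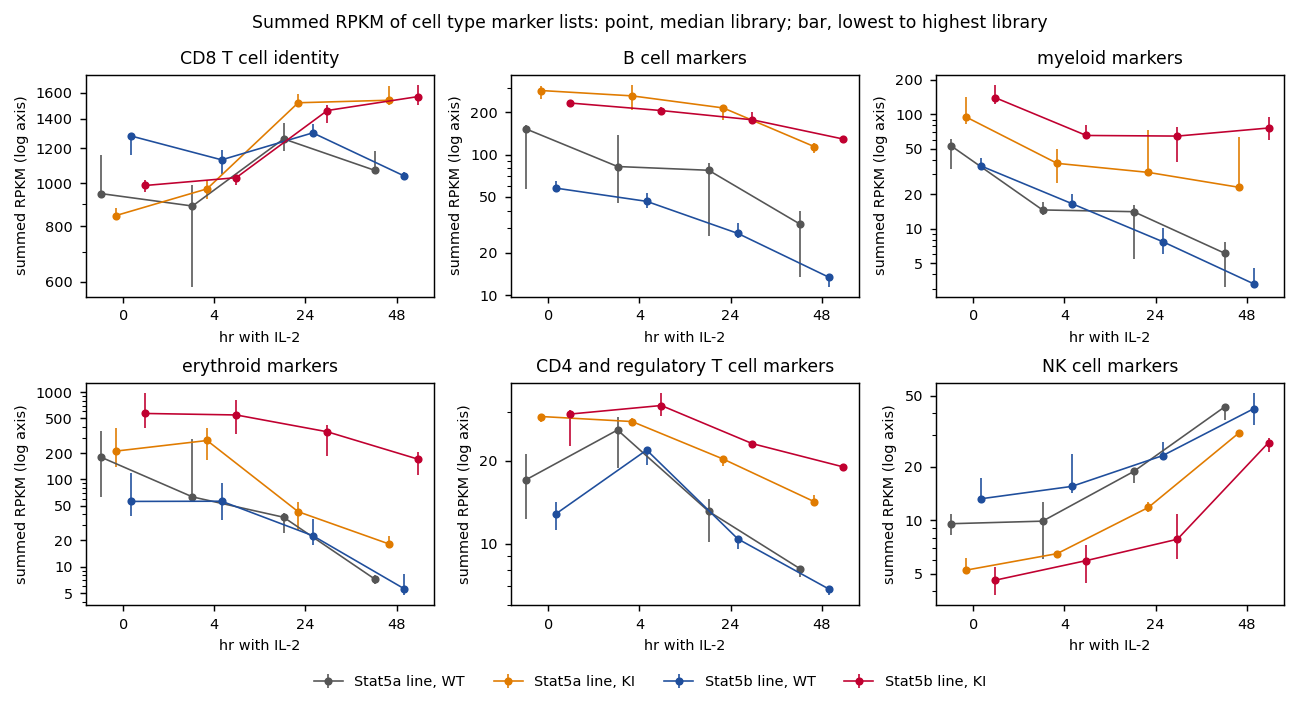
Summed RPKM of cell type marker lists (log axis) by hours with IL-2, for WT and KI cells of the Stat5a and Stat5b lines. Points are medians and bars run from the lowest to the highest library of a group. The B cell sum of the Stat5b KI cells lies above that of the Stat5b WT cells at every time, with medians of 233 against 57.8 at 0 hr and 177 against 27.5 at 24 hr.

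RefSeq promoter sequences on GRCm38.p6, the build of the files (mm10), were available here for 8 of the 10 genes, and 9 promoters were read, since Cd160 has 2. In the 250 bases before the start, TTCNNNGAA, the GAS motif to which STAT5 binds, was present in 1 of the 9, a Cd160 promoter. It was present in 7.02% of all 32851 promoters of this length. TGANTCA, the motif of AP-1, a factor induced by T cell activation, was present in the Havcr2 promoter and in 6.75% of all promoters. Each motif is its own reverse complement, so that both strands were searched. The sequences of Cd160 and Cd274, which both rose with IL-2 in WT cells and were lower in Stat5b KI cells at 24 hr, and of Havcr2, which fell with IL-2, are shown 5′ to 3′ with motifs in capitals. They lie on chr3:96814522-96814771 (minus strand, GAS beginning 234 bases before the start), on chr19:29367188-29367437 (plus strand, neither motif), and on chr11:46454681-46454930 (plus strand, AP-1 motif beginning 200 bases before the start). A match describes the letters only, and no match says nothing about binding elsewhere.
Cd160: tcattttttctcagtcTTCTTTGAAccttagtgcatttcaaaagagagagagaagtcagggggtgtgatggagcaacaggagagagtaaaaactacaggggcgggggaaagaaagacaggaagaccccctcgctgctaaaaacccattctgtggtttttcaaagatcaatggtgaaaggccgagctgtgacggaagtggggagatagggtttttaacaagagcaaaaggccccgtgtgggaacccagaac
Cd274: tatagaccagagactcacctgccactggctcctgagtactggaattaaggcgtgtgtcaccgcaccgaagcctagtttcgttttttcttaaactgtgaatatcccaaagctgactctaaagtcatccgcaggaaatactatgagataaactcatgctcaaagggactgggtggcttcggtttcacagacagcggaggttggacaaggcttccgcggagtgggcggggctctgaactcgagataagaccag
Havcr2: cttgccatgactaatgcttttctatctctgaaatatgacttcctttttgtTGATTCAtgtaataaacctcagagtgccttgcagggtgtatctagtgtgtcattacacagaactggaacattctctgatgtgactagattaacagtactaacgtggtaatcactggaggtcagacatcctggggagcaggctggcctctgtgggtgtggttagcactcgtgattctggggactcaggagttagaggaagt

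Before IL-2 was added, Ctla4 stood at the highest level of the 10 genes in WT cells, at 38.3 ± 3.86 RPKM (SD, n = 3) in Stat5a WT and 44.9 ± 1.64 in Stat5b WT cells. Cd274 followed at 20.2 ± 3.29 and 18.9 ± 2.45 RPKM and Btla at 17.7 ± 1.56 and 17.7 ± 2.34 RPKM, and these genes did not differ beyond their spread. Tox (11.8 ± 1.77 and 13.5 ± 1.51 RPKM) and Tigit (10.8 ± 2.51 and 16.3 ± 3.58 RPKM) overlapped each other in both lines. Lag3 (6.46 ± 1.08 and 8.04 ± 0.624), Havcr2 (5.52 ± 0.51 and 5.66 ± 0.68), and Cd160 (4.98 ± 0.927 and 6.25 ± 0.817) were lower, and their neighbours in this order overlapped in the Stat5a line. Cd200 (2.04 ± 0.245 and 1.82 ± 0.151 RPKM) and Pdcd1 (1.09 ± 0.488 and 1.85 ± 0.704 RPKM) were lowest. By 48 hr this order had changed in WT cells, with Cd274 at 33.3 ± 3.64 and 27 ± 0.139 RPKM and Btla at 17.2 ± 0.538 and 16.6 ± 1.92 RPKM above Ctla4 at 4.72 ± 1.02 and 4.53 ± 0.712 RPKM.

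**Figure D2:**
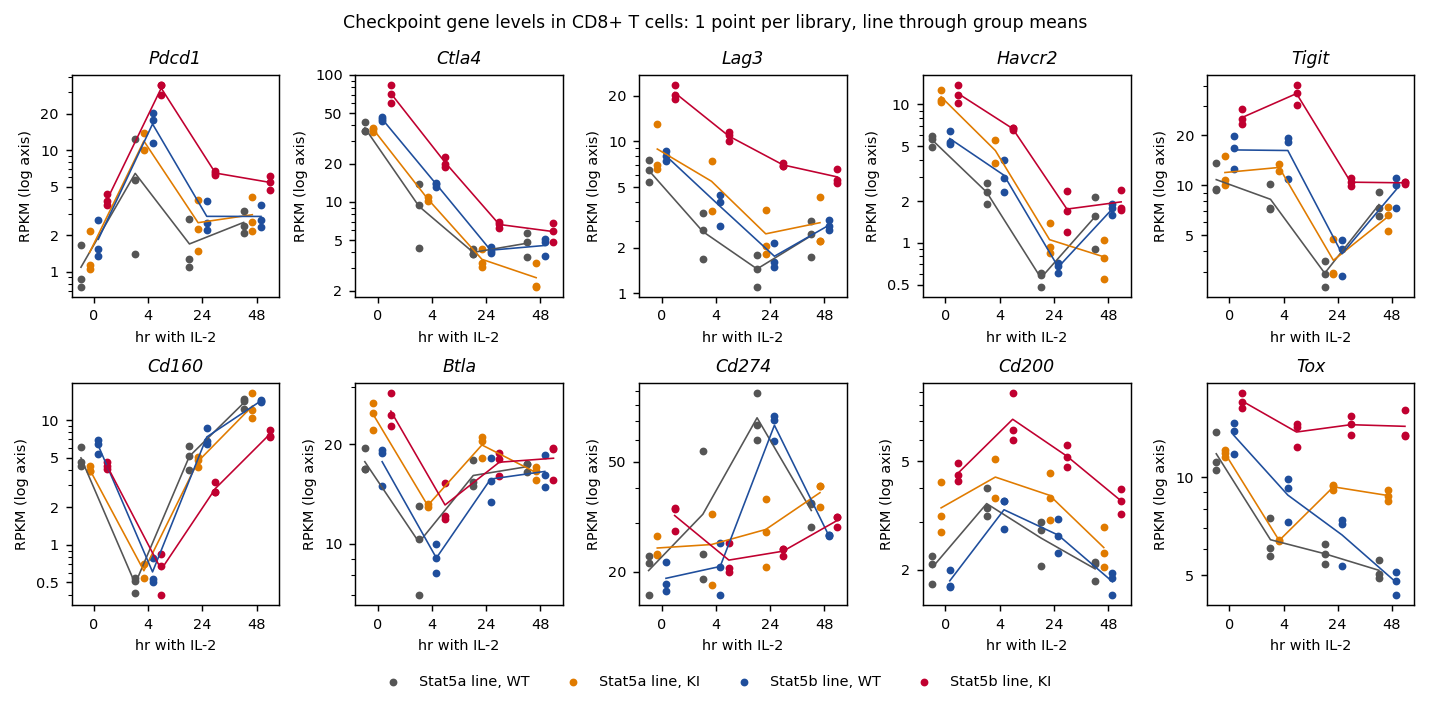
RPKM (log axis) of the 10 genes by hours with IL-2. Each point is 1 library, lines join group means, and colours give line and genotype. Ctla4 lies below its 0 hr level at each culture time in all 4 series, Cd160 is lowest at 4 hr and highest at 48 hr, and Tox in Stat5b KI cells stays between 12.4 and 18.1 RPKM at all times.

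In WT cells cultured with IL-2, Ctla4, Lag3, and Havcr2 fell at each time, Tigit at 24 hr, and Tox at 24 and 48 hr, while Pdcd1 rose at 4 hr, Cd274 at 24 hr, and Cd160, after an early fall, at 48 hr. A gene was called where the quasi-likelihood test of edgeR gave a p, adjusted by Benjamini and Hochberg's method, of 0.05 or less and the fold was 2 or more. Of 60 comparisons of a culture time with 0 hr (10 genes, 3 times, 2 lines), 33 were called, 27 lower and 6 higher. At 4 hr, 5 of the 10 genes were called in the Stat5a line, where 21.4% of the 15566 genes tested were called, and 6 in the Stat5b line, where 15.7% were. At 24 hr, 6 of the 10 were called in each line, beside 22.9% and 22.5% of all genes. At 48 hr, 5 were called in each, beside 36.6% and 35.3% of all genes. The median log2 fold change of the 10 genes was -0.81, -0.75, and -0.48 at 4, 24, and 48 hr in the Stat5a line, beside 0.01, -0.04, and -0.12 for all genes tested. For Stat5b WT cells it was -0.92, -0.79, and -0.62, beside -0.03, -0.04, and -0.13. The 3 comparisons of a line share their 0 hr libraries. B cell and myeloid markers fell over the same times: all 8 B cell and all 8 myeloid markers were called lower at 48 hr in WT cells of both lines, with median log2 fold changes of -2.72 (B cell) and -3.99 (myeloid) for Stat5a WT and -2.97 and -5.03 for Stat5b WT cells. All 5 dendritic cell and all 5 erythroid markers were also called lower at 48 hr in Stat5a WT cells (medians of -4.01 and -5.09). In the same comparison 3 of 5 NK cell markers were called higher (median 1.81), and 3 of 6 memory-phenotype markers were higher and 1 lower (median 0.60). The part of these cell types in the changes of the 10 genes was not tested. In bulk samples such as these, fewer cells of a type and less RNA per cell cannot be told apart.

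**Figure D3:**
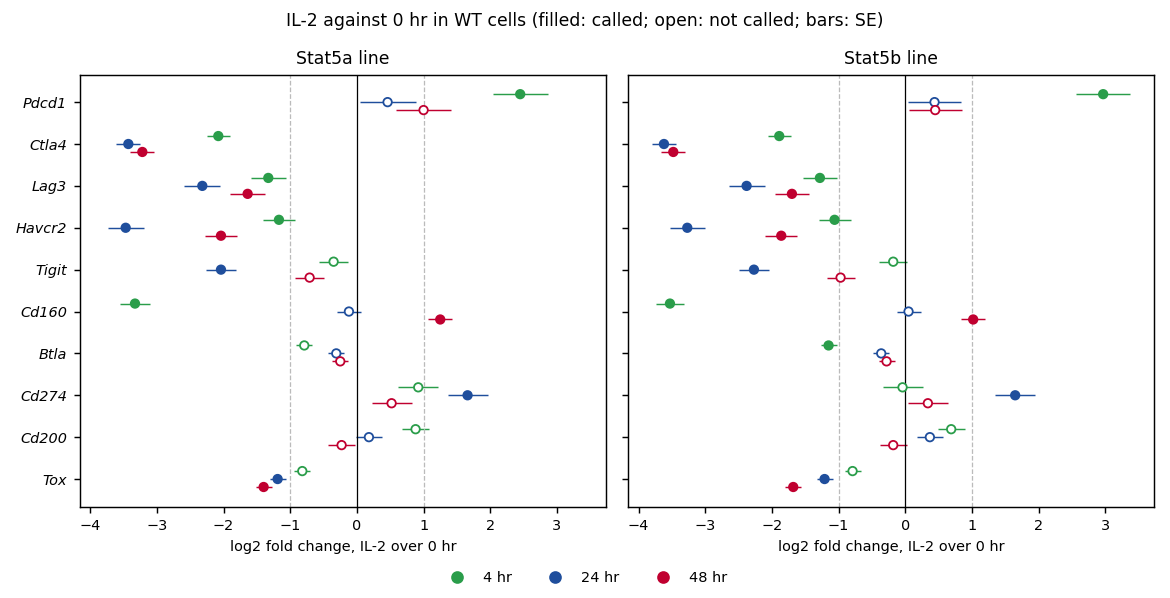
Log2 fold change of the 10 genes in WT cells, IL-2 over 0 hr, with SE bars, for the Stat5a (left) and Stat5b (right) lines. Filled points were called and dashed lines mark a fold of 2. Ctla4, Lag3, and Havcr2 are called lower at every time in both lines, Pdcd1 is called higher at 4 hr, Cd274 at 24 hr, and Cd160 at 48 hr.

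Ctla4 fell at each time in both lines. In Stat5a WT libraries it was 35.9, 36.1, and 42.7 RPKM at 0 hr, 9.45, 4.3, and 13.9 at 4 hr, 3.87, 3.85, and 4.27 at 24 hr, and 3.66, 4.83, and 5.69 at 48 hr. All libraries with IL-2 lay below all libraries at 0 hr, and those at 24 and 48 hr lay close together. The log2 fold change was -2.08 ± 0.17 (SE) at 4 hr, -3.43 ± 0.18 at 24 hr, and -3.22 ± 0.18 at 48 hr (adjusted p = 6.65e-13, 3.5e-18, and 3.67e-18). In the Stat5b line it was -1.89 ± 0.17, -3.62 ± 0.18, and -3.48 ± 0.18, a 12.3-fold fall at 24 hr. CD28, the activating receptor that shares the ligands of CTLA-4, had 77.7 ± 9.25 RPKM at 0 hr and 19.7 ± 1.78 at 48 hr in Stat5a WT cells (log2 fold change -2.19 ± 0.13).

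Lag3 and Havcr2 fell at 4 hr, were lowest at 24 hr, and were less low at 48 hr. Lag3 in Stat5b WT libraries was 8.65, 7.4, and 8.05 RPKM at 0 hr, 4.43, 2.79, and 3.98 at 4 hr, 2.15, 1.62, and 1.5 at 24 hr, and 2.78, 2.61, and 3.02 at 48 hr. Its log2 fold change was -1.28 ± 0.26, -2.38 ± 0.27, and -1.70 ± 0.26, and in the Stat5a line -1.33 ± 0.26, -2.32 ± 0.27, and -1.64 ± 0.26. Havcr2 in Stat5b WT libraries was 5.35, 5.2, and 6.44 RPKM at 0 hr, 0.683, 0.601, and 0.72 at 24 hr, and 1.92, 1.58, and 1.79 at 48 hr. No library at 24 or 48 hr reached the 0 hr range of either gene. The log2 fold change of Havcr2 was -3.27 ± 0.26 at 24 hr and -1.86 ± 0.24 at 48 hr, and in the Stat5a line -3.47 ± 0.27 and -2.04 ± 0.24 (adjusted p = 1.18e-13 and 2.56e-09). Its calls at 4 hr, at -1.17 ± 0.24 and -1.06 ± 0.24, were near the fold threshold and dropped below it at -0.89 without replicate 3 of the Stat5a WT cells at 4 hr and, for Stat5b WT cells, at -0.90 without replicate 2 at 4 hr and at -0.94 without replicate 3 at 0 hr.

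Tigit, which shares its CD155 ligand with the activating receptor CD226, fell at 24 hr and was not called at 4 or 48 hr. In Stat5b WT libraries it was 16.8, 19.7, and 12.5 RPKM at 0 hr, 18.3, 19.4, and 10.9 at 4 hr, 4.64, 4.11, and 2.81 at 24 hr, and 11, 9.96, and 7.3 at 48 hr. The 4 hr libraries overlapped those at 0 hr, while those at 24 hr lay below all of them. The log2 fold change at 24 hr was -2.27 ± 0.23 in the Stat5b and -2.04 ± 0.23 in the Stat5a line (adjusted p = 6.87e-11 and 1.13e-09). At 48 hr it was -0.97 ± 0.21 and -0.71 ± 0.22, short of the fold threshold. The Stat5b value passed without replicate 3 of the 0 hr libraries (-1.05, adjusted p = 0.000115) or replicate 1 of the 48 hr libraries (-1.02, adjusted p = 0.000415).

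Pdcd1 rose at 4 hr. In Stat5b WT libraries it was 2.66, 1.54, and 1.36 RPKM at 0 hr, 20.3, 17.6, and 11.4 at 4 hr, 3.82, 2.54, and 2.22 at 24 hr, and 3.57, 2.67, and 2.33 at 48 hr. The 3 libraries at 4 hr stood far above all others of this genotype. The rise was 7.84-fold (log2 2.97 ± 0.41, adjusted p = 1.16e-07). In Stat5a WT libraries Pdcd1 was 0.87, 0.757, and 1.65 RPKM at 0 hr and 5.67, 1.39, and 12.3 at 4 hr, so that 1 library at 4 hr lay within the 0 hr range, and the rise was 5.47-fold (log2 2.45 ± 0.41, adjusted p = 3.61e-06). At 48 hr the Stat5a WT libraries ran from 2.09 to 3.16 RPKM, above all those at 0 hr, and the log2 fold change was 1.00 ± 0.41 (adjusted p = 0.028), just under the fold threshold. It passed with the replicate block (1.05, adjusted p = 0.0101) and in 8 other settings with values from 1.08 to 1.51, the highest being that without replicate 3 of the 0 hr libraries. Replicate 2 at 4 hr, the low library, stood apart from the other libraries of its group across genes, with a chi-square per gene of 200 and 204 against replicates 1 and 3, which gave 21.7 with each other. Of its mapped reads 44.86% were on the transcripts used, against 71.71% and 72.94%. It had 54.7 RPKM of Cd274 against 23.2 and 18.8, and 4.3 of Ctla4 against 9.45 and 13.9. All results for Stat5a WT cells at 4 hr include it.

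Cd160 fell sharply at 4 hr and then rose past its starting level. In Stat5a WT libraries it was 4.61, 4.3, and 6.04 RPKM at 0 hr, 0.412, 0.539, and 0.513 at 4 hr, 4, 5.19, and 6.23 at 24 hr, and 12.2, 14.7, and 14.3 at 48 hr. The 4 hr and 48 hr libraries did not overlap with those at 0 hr in either direction. The log2 fold change was -3.33 ± 0.22 at 4 hr and 1.25 ± 0.18 at 48 hr (adjusted p = 2.18e-15 and 1.4e-07), and -3.53 ± 0.21 and 1.02 ± 0.18 in the Stat5b line. NK cells also make CD160. The median summed RPKM of 5 NK cell markers in Stat5a WT libraries was 9.57 at 0 hr, 9.89 at 4 hr, and 43.4 at 48 hr. In Stat5b WT libraries it was 13.2, 15.5, and 42.4, and the part of NK cells in the changes of Cd160 was not tested. Btla, the receptor that shares the ligand HVEM with CD160, was 8.15, 9.03, and 9.94 RPKM at 4 hr against 19.3, 15, and 18.9 at 0 hr in Stat5b WT libraries, a called fall (log2 -1.15 ± 0.12, adjusted p = 4.1e-10) that was under the fold threshold by limma on log2(RPKM + 1) (-0.89) and log2(RPKM + 0.1) (-0.96). For Stat5a WT cells its log2 fold change was -0.79 ± 0.12, under the fold threshold. At 24 and 48 hr Btla lay within 0.36 on the log2 scale of its 0 hr level in both lines.

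Cd274, which encodes the ligand PD-L1 and is also expressed by T cells themselves, peaked at 24 hr. In Stat5a WT libraries it was 22.7, 21.4, and 16.4 RPKM at 0 hr, 59.9, 67.9, and 88.3 at 24 hr, and 35.2, 29.1, and 35.5 at 48 hr. In Stat5b WT libraries it was 21.7, 17, and 18 RPKM at 0 hr, 73, 70.5, and 59.6 at 24 hr, and 27.1, 26.9, and 27.2 at 48 hr. The libraries at 24 hr stood above all others at 0 and 48 hr in both lines. The rise at 24 hr was 3.17-fold for Stat5a WT (log2 1.66 ± 0.30, adjusted p = 1.22e-05) and 3.15-fold for Stat5b WT cells (1.65 ± 0.30, adjusted p = 1.37e-05). With all 48 libraries in the fit, where the library added has few reads, the adjusted p of these rises was 0.0687 and 0.067. Cd200, whose product signals to the CD200 receptor on myeloid cells, was not called at any time, with its largest log2 fold change at 4 hr (0.88 ± 0.20 and 0.69 ± 0.20). The Stat5a value was called without replicate 3 of the 0 hr libraries (1.00, adjusted p = 0.000395) or without replicate 1 (1.10, adjusted p = 4.11e-05) or 3 (1.14, adjusted p = 1.77e-05) of the 4 hr libraries.

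Tox fell at 24 and 48 hr. In Stat5b WT libraries it was 13.9, 14.7, and 11.8 RPKM at 0 hr, 9.28, 9.84, and 7.3 at 4 hr, 7.18, 7.4, and 5.34 at 24 hr, and 5.1, 4.33, and 4.8 at 48 hr. All libraries with IL-2 lay below those at 0 hr. The log2 fold change was -0.79 ± 0.12 at 4 hr, which is under the fold threshold, -1.21 ± 0.12 at 24 hr, and -1.68 ± 0.12 at 48 hr (adjusted p = 9.22e-07, 7.65e-11, and 9.42e-15). In Stat5a WT cells the values were -0.82 ± 0.12, -1.19 ± 0.12, and -1.40 ± 0.12.

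KI cells were then compared with WT cells of the same line and time. Of 40 comparisons in the Stat5b line, 14 were called, 12 of them higher in KI cells, and of 40 in the Stat5a line 3 were called, 1 of them higher. In the Stat5b line the genes called were Lag3, Havcr2, and Cd200 at 0 hr (all higher, beside 7.98% of all genes tested), Lag3, Havcr2, and Tigit at 4 hr (all higher, beside 10.4%), Pdcd1, Lag3, Havcr2, Tigit, and Tox (higher) with Cd160 and Cd274 (lower) at 24 hr, beside 16.7%, and Tox (higher) at 48 hr, beside 26.3%. The count of 7 of 10 at 24 hr was thus above the share of all genes, and that of 1 of 10 at 48 hr below it. The 10 genes were chosen with earlier results of these data known, so that these counts only describe them. Among Stat5a comparisons the genes called were Havcr2 at 0 hr (higher, beside 1.04%), none at 4 hr (beside 6.63%), Cd274 at 24 hr (lower, beside 4.45%), and Havcr2 at 48 hr (lower, beside 8.78%). The share at 4 hr depends strongly on the fit, with 1032 of 15566 genes called here, 1153 by DESeq2, 249 of 11735 by limma on log2(RPKM + 1), 0 of 13842 in an edgeR fit of only the groups compared, and 2668 of 15404 with all 48 libraries. The 10 genes depended on the fit at 4 hr too. Pdcd1 (0.72 ± 0.41) was called by limma on log2(RPKM + 1) (1.10, adjusted p = 0.0194) and log2(RPKM + 0.1) (1.33, adjusted p = 0.0278) and without replicate 3 of the WT cells (1.43, adjusted p = 0.00773). Lag3 (0.83 ± 0.29) was called by limma on log2(RPKM + 0.1) (1.03, adjusted p = 0.0109), and Cd274 (-0.85 ± 0.34) without replicate 1 (-1.21) or 3 (-1.27) of the WT cells. Without replicate 2 of the KI cells, which leaves 1 library assumed to vary like the other groups, Lag3 (1.27) and Cd274 (-1.34) were called. At 0 hr, 162 of 15566 genes were called here and 1 of 13933 in the fit of only the groups compared. Median log2 differences of the 10 genes in the Stat5b line were 0.65, 0.69, 1.02, and 0.19 at 0, 4, 24, and 48 hr, beside 0.01, -0.03, 0.07, and 0.10 for all genes. For Stat5a they were 0.30, 0.09, 0.35, and 0.02, beside 0.00, 0.04, 0.01, and 0.04. Among all genes called in the Stat5b line, 1148 were higher and 94 lower at 0 hr, and 1698 were higher and 898 lower at 24 hr. At all 4 times 8 of 8 B cell markers were called higher in Stat5b KI cells, and 7 or 8 of 8 myeloid markers. All 5 erythroid markers were called higher at each time as well, 1, 2, 4, and 5 of 5 dendritic cell markers at 0, 4, 24, and 48 hr, and 1, 1, 3, and 3 of 5 CD4 and regulatory T cell markers. The summed RPKM of NK cell and memory-phenotype markers went the other way, with lower medians in Stat5b KI than WT libraries at each time. At 24 hr they were 7.83 against 23.1 (NK cell) and 605 against 1010 (memory-phenotype).

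**Figure D4:**
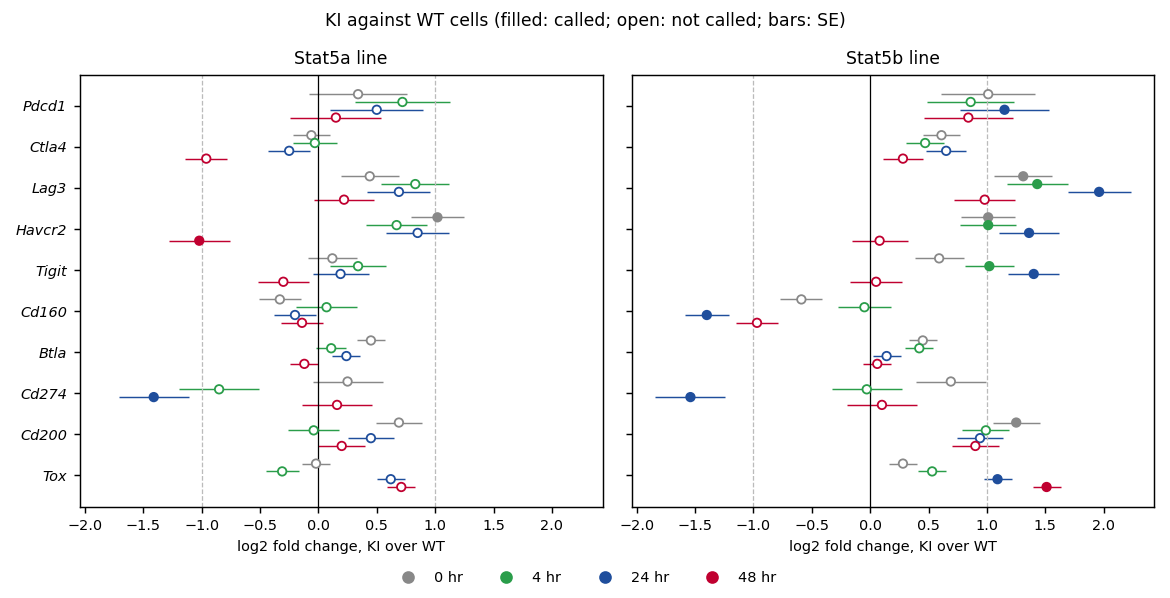
Log2 fold change of the 10 genes, KI over WT, with SE bars, at 0, 4, 24, and 48 hr in the Stat5a (left) and Stat5b (right) lines. Filled points were called and dashed lines mark a fold of 2. Lag3 in the Stat5b line is called at 0, 4, and 24 hr, Tox stands at 0.28 at 0 hr and 1.51 at 48 hr, and Cd274 is called lower in both lines at 24 hr.

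Lag3 was the receptor with the largest difference in the Stat5b line. In KI libraries it was 20.1, 23.6, and 19 RPKM at 0 hr against 8.65, 7.4, and 8.05 in WT libraries, 11, 11.5, and 9.99 at 4 hr against 4.43, 2.79, and 3.98, and 6.93, 7.2, and 6.87 at 24 hr against 2.15, 1.62, and 1.5. The genotypes did not overlap at any time. The log2 difference was 1.31 ± 0.25, 1.43 ± 0.26, and 1.96 ± 0.27 at 0, 4, and 24 hr (adjusted p = 0.000202, 5.52e-05, and 1.14e-07), and 0.98 ± 0.26 at 48 hr, just under the fold threshold. Beside it, the B cell marker sum was 177 RPKM in KI and 27.5 in WT libraries at 24 hr. By comparison, Lag3 was 13.1, 6.62, and 6.99 RPKM in Stat5a KI libraries at 0 hr against 5.38, 6.47, and 7.54 in WT libraries, with replicate 1 of the KI cells above the rest, and the log2 difference was 0.44 ± 0.25 (adjusted p = 0.406). At 4, 24, and 48 hr it was 0.83 ± 0.29, 0.69 ± 0.27, and 0.22 ± 0.26, none of them called.

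Havcr2 was higher in KI cells of both lines at 0 hr. In the Stat5a line it was 12.8, 10.8, and 10.4 RPKM in KI against 5.64, 5.95, and 4.96 in WT libraries, and in the Stat5b line 13.9, 11.7, and 10.2 against 5.35, 5.2, and 6.44. The genotypes did not overlap in either line. On the log2 scale, KI minus WT was 1.02 ± 0.23 (adjusted p = 0.0111) and 1.01 ± 0.23 (adjusted p = 0.00139), close to the fold threshold. The call in the Stat5a line was lost without replicate 1 of its KI cells (0.93, adjusted p = 0.0877) or replicate 3 of its WT cells (0.92, adjusted p = 0.118) and with all 48 libraries (1.01, adjusted p = 0.0634). The call in the Stat5b line was lost on fold without replicate 1 of its KI cells (0.89), or replicate 1 (0.97) or 2 (0.93) of its WT cells, without the filter on low counts (0.98), with all 48 libraries (0.99), and with the transcript of the largest mean count (1.00). By limma on log2(RPKM + 1) both calls were lost on fold (0.92 and 0.95). Macrophages and dendritic cells also express Havcr2, and the myeloid marker sum at 0 hr was 94.9 RPKM in KI and 52.8 in WT libraries for Stat5a and 140 and 35.5 for Stat5b. In the Stat5b line Havcr2 was also called higher at 4 hr (6.79, 6.74, and 6.53 against 2.93, 2.33, and 3.97 RPKM, log2 1.01 ± 0.24) and at 24 hr (2.36, 1.19, and 1.71 against 0.683, 0.601, and 0.72 RPKM, log2 1.36 ± 0.26). The call at 4 hr was lost on fold without replicate 2 of the WT cells (0.85) and by limma on log2(RPKM + 1) (0.93), as was the call at 24 hr by limma on log2(RPKM + 1) (0.70, adjusted p = 0.000404). At 48 hr in Stat5a cells the sign was the other way, with 1.05, 0.779, and 0.549 RPKM in KI against 0.908, 1.57, and 2.16 in WT libraries, which overlap (log2 -1.02 ± 0.26, adjusted p = 0.00132). That call was lost on fold without replicate 3 of the WT cells (-0.74) or replicate 3 of the KI cells (-0.87), and by limma on log2(RPKM + 1) (-0.48) and log2(RPKM + 0.1) (-0.84). The myeloid marker sum of these libraries was 23 RPKM in KI and 6.1 in WT cells.

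Tigit was called higher in Stat5b KI cells at 4 and 24 hr, and Pdcd1 at 24 hr. Tigit was 36.2, 40.5, and 30.6 RPKM in KI against 18.3, 19.4, and 10.9 in WT libraries at 4 hr, and 11, 9.88, and 10.4 against 4.64, 4.11, and 2.81 at 24 hr. The genotypes were apart at both times and met at 48 hr, with 10.5, 10.1, and 10.4 against 11, 9.96, and 7.3 RPKM. The log2 difference was 1.02 ± 0.21 at 4 hr (adjusted p = 0.000313), 1.40 ± 0.22 at 24 hr (adjusted p = 2.35e-06), and 0.05 ± 0.22 at 48 hr. The 4 hr call fell short of 2-fold without replicate 3 of the WT cells (0.80) or replicate 2 of the KI cells (0.97), and its adjusted p was 0.128 with all 48 libraries. Pdcd1 was 34.3, 34.6, and 28.2 RPKM in KI against 20.3, 17.6, and 11.4 in WT libraries at 4 hr, and 6.76, 6.24, and 6.47 against 3.82, 2.54, and 2.22 at 24 hr. No KI library of the Stat5b line reached down to a WT library at these times. At 0 hr Pdcd1 was 3.55, 4.36, and 3.8 RPKM in KI against 2.66, 1.54, and 1.36 in WT libraries, again apart (log2 1.01 ± 0.40, adjusted p = 0.0628). It was called there in the fit of only the groups compared (adjusted p = 0.0081), with the replicate block (1.06, adjusted p = 0.0242), and without replicate 1 of the WT cells (1.36, adjusted p = 0.0307). On the log2 scale, the Pdcd1 difference was 0.86 ± 0.37 (adjusted p = 0.0775) at 4 hr and 1.15 ± 0.38 (adjusted p = 0.0122) at 24 hr, the latter lost without replicate 3 of the WT cells at 24 hr (1.00, adjusted p = 0.06). Ctla4 was higher in Stat5b KI cells by 0.47 to 0.65 on the log2 scale at 0, 4, and 24 hr, under the fold threshold, and was 3.27, 2.16, and 2.15 RPKM in Stat5a KI against 3.66, 4.83, and 5.69 in Stat5a WT libraries at 48 hr (log2 -0.96 ± 0.18, adjusted p = 3.69e-05, also under it). The latter value passed without the filter on low counts, with all 48 libraries, and with the transcript of the largest mean count (-1.01 in each), and without replicate 1 of the WT cells (-1.11) or replicate 1 of the KI cells (-1.21). Foxp3, a marker of regulatory T cells, which carry much Ctla4 and Tigit, had 1.94 RPKM in Stat5b KI and 1.48 in Stat5b WT libraries at 0 hr and 3.76 and 1.43 at 24 hr. The myeloid marker sum at 24 hr was 64.6 RPKM in Stat5b KI and 7.7 in Stat5b WT libraries. The part of these cells in the differences of Tigit, Pdcd1, and Ctla4 was not tested.

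Cd160 and Cd274 were the genes that were lower in Stat5b KI cells. Cd160 was 2.64, 2.65, and 3.22 RPKM in KI against 6.84, 8.67, and 6.49 in WT libraries at 24 hr and 8.3, 7.34, and 7.48 against 14.3, 14.5, and 14.1 at 48 hr. The genotypes were well apart at both times. The log2 difference was -1.40 ± 0.19 at 24 hr (adjusted p = 7.79e-08) and -0.97 ± 0.18 at 48 hr, just under the fold threshold. The 48 hr value passed without the filter on low counts (-1.04), with all 48 libraries (-1.03), with the transcript of the largest mean count (-1.01), and in 5 fits that leave out 1 library. For Stat5a cells the Cd160 difference lay between -0.33 and 0.07 at all 4 times and was not called. CD160 is also made by NK cells, and the summed RPKM of 5 NK cell markers, led by Klre1, was 7.83 in Stat5b KI and 23.1 in Stat5b WT libraries at 24 hr. For Stat5a cells it was 11.8 and 18.8. The summed RPKM of 6 memory-phenotype CD8 T cell markers at 24 hr was 605 in Stat5b KI and 1010 in Stat5b WT libraries. For Stat5a cells it was 522 and 727. The part of NK cells and of memory-phenotype cells in the result was not tested.

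Cd274 was lower at 24 hr in both KI lines, at the time of its peak in WT cells. In Stat5b KI libraries it was 22.8, 24.2, and 24.1 RPKM against 73, 70.5, and 59.6 in WT libraries, and in Stat5a KI libraries 36.5, 20.8, and 27.9 against 59.9, 67.9, and 88.3. On the log2 scale, KI minus WT was -1.54 ± 0.30 (a 2.92-fold lower level, adjusted p = 5.31e-05) and -1.41 ± 0.30 (2.66-fold lower, adjusted p = 0.000963). The genotypes did not overlap at 24 hr in either line. At 48 hr KI and WT libraries stood at 31.4, 29.1, and 31.4 against 27.1, 26.9, and 27.2 RPKM in Stat5b cells, with all KI libraries above all WT libraries, and at 40.7, 34.2, and 40.9 against 35.2, 29.1, and 35.5 in Stat5a cells, which overlap. Neither difference was called (log2 0.10 ± 0.30 and 0.16 ± 0.30). With all 48 libraries in the fit the adjusted p of these calls was 0.116 and 0.319. At 24 hr the B cell marker sum was 177 RPKM in KI and 27.5 in WT libraries for Stat5b and 215 and 77.4 for Stat5a, and its part in the result was not tested.

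Cd200 in Stat5b cells was 4.24, 4.92, and 4.44 RPKM in KI against 1.99, 1.74, and 1.73 in WT libraries at 0 hr, 6.53, 8.86, and 5.97 against 3.56, 2.81, and 3.58 at 4 hr, and 3.2, 3.94, and 3.58 against 1.94, 1.87, and 1.61 at 48 hr. No KI library fell into the WT range. The log2 difference was 1.25 ± 0.20 at 0 hr (adjusted p = 2.63e-05), which is past the fold threshold, and 0.99 ± 0.20, 0.94 ± 0.20, and 0.90 ± 0.20 at 4, 24, and 48 hr, which are not. The 4 hr value lay at the threshold and passed it with the DESeq2 test (1.00), with DESeq2 size factors (1.00), without the filter on low counts (1.02), in the fit of only the groups compared (1.03), with all 48 libraries (1.02), by limma on log2(RPKM + 0.1) (1.07), with the transcript of the largest mean count (1.02), and in 4 fits that leave out 1 library (1.04 to 1.10). The 24 hr value passed without replicate 3 of the WT cells (1.04) or replicate 3 of the KI cells (1.00). The 0 hr call was lost on fold by limma on log2(RPKM + 1) (0.97). B cells also express Cd200, and the B cell marker sum was 233 RPKM in KI and 57.8 in WT libraries at 0 hr. Btla, which B cells carry as well, differed by 0.45 ± 0.12 at 0 hr in each line and was not called at any time.

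Tox was called higher in Stat5b KI cells at 24 and 48 hr. In KI libraries it was 17, 18.1, and 16.3 RPKM at 0 hr, 14.6, 14.3, and 12.4 at 4 hr, 15.4, 13.5, and 14.6 at 24 hr, and 16.1, 13.4, and 13.5 at 48 hr. In WT libraries it went from 13.9, 14.7, and 11.8 at 0 hr to 5.1, 4.33, and 4.8 at 48 hr. The genotypes did not overlap at 0 hr, and their levels were closer at that time than at 48 hr. On the log2 scale, KI minus WT was 0.28 ± 0.12 at 0 hr (adjusted p = 0.0846), 0.53 ± 0.12 at 4 hr, 1.09 ± 0.12 at 24 hr (adjusted p = 1.71e-09), and 1.51 ± 0.12 at 48 hr, a 2.86-fold higher level (adjusted p = 4.17e-13). The 24 hr call fell short of 2-fold without replicate 3 of the WT cells (0.96), while the 48 hr value lay between 1.41 and 1.57 under all settings tried. In Stat5a cells Tox was 9.12, 8.46, and 8.77 RPKM in KI against 5.56, 5.05, and 4.9 in WT libraries at 48 hr, which do not overlap (log2 0.71 ± 0.12, adjusted p = 9.77e-06, under the fold threshold). Beside this, the summed RPKM of 5 naive T cell markers at 48 hr was 912 in Stat5b KI and 436 in Stat5b WT libraries, and that of 6 memory-phenotype markers 823 and 1220, while the myeloid marker sum was 76 and 3.29. Their part in the result was not tested.

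Whether the change from 0 hr to culture with IL-2 differed between KI and WT cells was tested as the difference of their responses. Each response was taken against its own 0 hr libraries, and no group was cultured without IL-2. Of the 10 genes, none was called at 4 hr for Stat5a (beside 0.340% of all genes) or Stat5b (beside 0.610%). At 24 hr Cd274 was called in both, with a lower response in KI cells. The difference of log2 responses was -1.66 ± 0.42 for Stat5a (adjusted p = 0.0153, beside 1.59% of genes called) and -2.24 ± 0.42 for Stat5b (adjusted p = 6.27e-05, beside 10.2%). In Stat5b KI cells Cd274 was 33.6, 28.1, and 34 RPKM at 0 hr and 22.8, 24.2, and 24.1 at 24 hr, and the KI libraries at 24 hr lay below those at 0 hr, a comparison not tested by itself. At 48 hr Havcr2 was called in the Stat5a line, with a deeper fall in KI cells (-2.04 ± 0.35, adjusted p = 2.82e-05, beside 6.25%), and Tox in the Stat5b line, with a smaller fall (1.23 ± 0.17, adjusted p = 1.51e-07, beside 21.4%). For Havcr2 in Stat5b cells it was -0.93 ± 0.34 (adjusted p = 0.0201), under the fold threshold, and was called in 4 fits that leave out 1 library (-1.03 to -1.08). For Lag3 in the Stat5b line the difference of responses was 0.11 ± 0.35, 0.65 ± 0.36, and -0.33 ± 0.36 at 4, 24, and 48 hr and was not called. In Stat5b KI cells Lag3 was 20.9 ± 2.42 RPKM at 0 hr and 5.83 ± 0.681 at 48 hr. The Cd274 call in the Stat5a line was lost without replicate 2 of its KI cells at 24 hr (-1.49, adjusted p = 0.0595), and with all 48 libraries in the fit the adjusted p was 0.832 (Stat5a) and 0.165 (Stat5b).

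Whether the difference between KI and WT cells was unlike in the 2 lines was tested in the same way, as the log2 KI effect for Stat5b minus that for Stat5a. At 0 hr none of the 10 genes was called, beside 0.0964% of all genes. At 4 hr Cd200 was called (1.02 ± 0.30, adjusted p = 0.0257, beside 4.72%, or 735 of 15566 genes). Fitted on only the groups compared, 2 of 14603 genes were called and Cd200 was not (adjusted p = 0.463), and it was not called by limma on log2(RPKM + 1) or log2(RPKM + 0.1) (adjusted p = 0.063 and 0.0829). It was also not called without replicate 2 of the Stat5a WT cells at 4 hr (0.64, adjusted p = 0.143), replicate 2 of the Stat5b KI cells (0.94, adjusted p = 0.0535), or replicate 2 of the Stat5b WT cells (0.92, adjusted p = 0.0626). Without replicate 2 of the Stat5a KI cells (0.82, adjusted p = 0.121) that group holds 1 library, which is assumed to vary like the other groups. At 24 hr Lag3 (1.27 ± 0.38, adjusted p = 0.0197) and Tigit (1.21 ± 0.32, adjusted p = 0.00895) were more strongly raised, and Cd160 (-1.20 ± 0.26, adjusted p = 0.00125) more strongly lowered, in the Stat5b line, beside 2.65% of all genes. The Lag3 call was lost without replicate 3 of the Stat5a WT cells (adjusted p = 0.0608), or replicate 2 (0.0619) or 3 (0.0646) of the Stat5a KI cells. With all 48 libraries the adjusted p was 0.0714 for Lag3 and 0.403 for Tigit. At 48 hr Ctla4 (1.24 ± 0.25, adjusted p = 0.00102) and Havcr2 (1.10 ± 0.35, adjusted p = 0.0377) were called, beside 2.06%, both with lower levels in Stat5a KI than WT cells. The Havcr2 call was lost in 8 of the fits that leave out 1 library, with values from 0.78, without replicate 3 of the Stat5a WT cells, to 1.15. It was also lost by limma on log2(RPKM + 1) (0.59, adjusted p = 0.122) and log2(RPKM + 0.1) (0.99, adjusted p = 0.0787) and with all 48 libraries (1.09, adjusted p = 0.119), and the Ctla4 call was lost on fold by limma on log2(RPKM + 1) (1.00, just short of 2-fold). The difference for Tox at 48 hr, 0.80 ± 0.17 (adjusted p = 0.00188), was under the fold threshold, and that for Cd274 at 24 hr was -0.13 ± 0.42. Marker sums at 24 hr in KI and WT libraries were 177 and 27.5 RPKM (Stat5b) and 215 and 77.4 (Stat5a) for B cells. For myeloid cells they were 64.6 and 7.7 (Stat5b) and 31.1 and 14.1 (Stat5a). Those of NK cells, lower in KI libraries, were 7.83 and 23.1 (Stat5b) and 11.8 and 18.8 (Stat5a). The part of these cells in the differences between lines was not tested.

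Other genes of these pathways were counted in full. At 48 hr, 36.6% and 35.3% of all genes were called with IL-2 in Stat5a and Stat5b WT cells, and 26.3% for KI against WT in the Stat5b line. The myeloid marker sum in Stat5b cells at 48 hr was 76 RPKM in KI and 3.29 in WT libraries, and Cd79a was 44.8 ± 0.541 and 2.85 ± 0.317 RPKM. Their part in the differences of the genes named here was not tested. Among 11 ligands and counter-receptors tested, 2 rose and 2 fell with IL-2 at 48 hr in WT cells of each line (medians of 0.53 and 0.06 in the Stat5a and Stat5b lines). Pdcd1lg2, which encodes PD-L2, the other ligand of PD-1, was 0.482 ± 0.0957 RPKM at 0 hr and 2.68 ± 0.263 at 48 hr in Stat5b WT cells and 0.838 ± 0.104 in Stat5b KI cells at 48 hr (log2 KI over WT -1.76 ± 0.21, adjusted p = 5.66e-09). Ceacam1, a ligand of TIM-3, was 0.113 ± 0.0248 RPKM in WT and 0.745 ± 0.0703 in KI cells of the Stat5b line at 48 hr (2.65 ± 0.45). In that comparison 2 of the 11 genes were higher, Ceacam1 and Lgals3, and 1 lower, Pdcd1lg2. Among 13 other inhibitory receptors 4 were higher and 2 lower in Stat5b KI cells at 48 hr, Cd300a (1.84 ± 0.44) among the higher ones, and Klrc1 (-1.67 ± 0.30), the NKG2A chain, and Lilrb4 (-1.54 ± 0.26) being the lower ones. Of 9 genes of inhibitory signalling 1 was called there, Dgka, a kinase that removes diacylglycerol (1.25 ± 0.12), and of 4 activating counterparts none. With IL-2 at 48 hr in Stat5b WT cells, 2 of the 13 receptors rose and 3 fell, Klrg1, a receptor of effector cells, among the latter (-2.44 ± 0.41), and 1 of 9 signalling genes and 2 of 4 activating genes fell. In Stat5a WT cells, 2 of the 13 receptors rose and 2 fell, 0 of 9 signalling genes were called, and 1 of 4 activating genes fell. Klrg1 there was 1.14 ± 0.14 RPKM at 0 hr and 0.502 ± 0.0949 at 48 hr.

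Of 18 transcription factors linked to exhaustion, 2 rose and 7 fell with IL-2 at 48 hr in Stat5b WT cells, and 2 rose and 6 fell in Stat5a WT cells, beside 35.3% and 36.6% of all genes called. Nr4a1, an immediate early gene of antigen receptor signalling, went from 74.5 ± 8.69 RPKM at 0 hr to 6.36 ± 0.484 at 48 hr in Stat5b WT cells (log2 -3.73 ± 0.19), and its relative Nr4a2 changed by -4.23 ± 0.27 (log2). In Stat5b KI against WT cells at 48 hr, 5 of the 18 were higher and 5 lower, beside 26.3% of all genes called, with a median of -0.22 beside 0.10 for all genes. Tox2, a relative of Tox, was 0.0415 ± 0.0286 RPKM in WT and 0.922 ± 0.249 in KI cells, both low levels (log2 4.36 ± 0.65, adjusted p = 3.7e-07), and Maf was 0.655 ± 0.136 and 3.06 ± 0.567 RPKM (2.15 ± 0.27, adjusted p = 1.14e-08). In these libraries the myeloid marker sum was 76 RPKM in KI and 3.29 in WT cells, that of CD4 and regulatory T cell markers 19 and 6.83, and Cd79a 44.8 ± 0.541 and 2.85 ± 0.317, and the part of such cells in the differences of these factors was not tested. Tox3 was called at levels of at most 0.104 RPKM in any group mean. The 5 lower genes were Nr4a3 (-2.05 ± 0.25), Irf4 (-1.50 ± 0.21), Tbx21 (-1.17 ± 0.15), Nr4a1 (-1.02 ± 0.18), and Eomes (-1.01 ± 0.18).

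The genes whose levels followed each of the 10 most closely over the 16 group means of log2 CPM were found by Pearson's r, as a description of points that share libraries. For Pdcd1 they were S1pr2 (r = 0.986) and Numbl (0.949), for Ctla4 Tnfaip3 (0.973) and Nr4a2 (0.971), for Lag3 Trps1 (0.963) and Lrp4 (0.947), for Havcr2 Dusp4 (0.977) and Stbd1 (0.965), and for Tigit Ptprk (0.922) and Fkbp1b (0.921). Cd160 was closest to Anxa6 (0.976) and Was (0.974), Btla to Mob3b (0.917) and Prkar2b (0.913), Cd200 to Specc1 (0.962) and Dnase2a (0.939), and Tox to Cntnap1 (0.966) and Zbtb38 (0.956). Cd274 had the lowest values, with Psme1 (0.850) and Gbp9 (0.844), a proteasome activator subunit and a guanylate-binding protein, both known as interferon-induced genes.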

How the data were processed

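RNA-seq was analysed in 47 of 48 libraries of splenic CD8+ T cells. Per the methods and the submitters' processing notes, 50 bp single-end reads were mapped to mm10/GRCm38 with TopHat2 2.0.11, uniquely mapped reads were kept, and reads on exons of RefSeq transcripts were counted. The authors deposited a raw count per transcript and library, without normalization, and an RPKM that they made from that count, the transcript length, and the mapped reads. The counting program and the use of strand are not given in the sources used here. Each symbol was represented by its longest transcript of 31682. The Stat5a KI library 3 of 4 hr (1028515 reads) was excluded. No other columns of per-sample values were present (0), and no columns of the authors' comparisons were used. The ChIP-seq was not analysed here.

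Counts were tested in R 4.3.3 with edgeR 4.0.16: TMM, filterByExpr with a minimum count of 10, 1 mean per group, glmQLFit, glmQLFTest, and Benjamini-Hochberg adjustment over the 15566 genes tested in each of 24 contrasts. All 10 genes passed the filter. The 10 genes, the other lists, and the markers were chosen with earlier results of these data known. From each other list up to 3 called genes with the largest change at 48 hr were named per family of contrasts (WT averaged over the lines; KI against WT in Stat5b cells), with the 2 genes most correlated with each of the 10. The 5 transcription factors lower in KI cells and single markers were named after their values were seen. Of 13 ligands listed 11 were tested, and of 16 other receptors 13. Promoters were read from RefSeq (250 bases before the start). The fitting functions were tested on simulated data. Alternatives were DESeq2 size factors, DESeq2 1.42.0, no filter on low counts, only the groups compared, a replicate block, all 48 libraries, limma 3.58.1 on log2(RPKM + 1) and log2(RPKM + 0.1) over genes that reach 1 RPKM in 3 libraries, the transcript with the largest mean count, no fold threshold, and each library left out. A count of 3 was taken as the floor, and depths cover counting error only. Python 3.11.15 and matplotlib 3.10.9 made the figures. Replicate numbers were taken as pairs where the deviations of libraries from their group means correlated above 0.1 in all 3 replicates. Only the Stat5a WT libraries at 24 and 48 hr passed this against 0 hr, at 0.206 to 0.419 and 0.117 to 0.192. The other correlations of a culture time with 0 hr were also positive, apart from replicate 1 of Stat5a WT cells at 4 hr (-0.226). In KI cells at 4 hr they were 0.161 and 0.181 (Stat5a) and 0.075 to 0.244 (Stat5b). The main fit used no pairing.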

Additional observations from a re-analysis of the deposited data

Results flagged for a closer look

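For 10 values the difference between groups was itself called. The change on culture with IL-2 differed between KI and WT cells for Cd274 at 24 hr, by -1.66 (Stat5a) and -2.24 (Stat5b) as log2 values. For Havcr2 at 48 hr in the Stat5a line it differed by -2.04, and for Tox at 48 hr in the Stat5b line by 1.23. No group was cultured without IL-2, so these values cannot separate IL-2 from time in culture. The KI effect in the Stat5b line exceeded that in the Stat5a line for Cd200 at 4 hr by 1.02, for Lag3 at 24 hr by 1.27, for Tigit at 24 hr by 1.21, for Ctla4 at 48 hr by 1.24, and for Havcr2 at 48 hr by 1.10, and it was more negative for Cd160 at 24 hr by -1.20. The median B cell, myeloid, and erythroid marker sums were higher in KI than in WT libraries at each of these times, although the erythroid sums of the Stat5a line overlapped at 4 hr (60.2 to 292 RPKM in WT and 166 to 391 in KI libraries) and 24 hr (24.6 to 40.8 and 26.4 to 55.3), and their part in these differences was not tested.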

How the results depend on the processing

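Of the 60 called values, 34 were called in all settings run for them, and 26 were lost in at least 1. The calls kept in all settings include Lag3 in Stat5b KI cells at 0, 4, and 24 hr, Cd160 and Tigit there at 24 hr, Tox there at 48 hr, and each fall of Ctla4 with IL-2 in WT cells. The number of calls among the 10 genes moved by more than 1.5 times in 5 cases. KI against WT gave 17 calls, 11 with limma on log2(RPKM + 1) and 37 without a fold threshold. The difference in IL-2 response gave 4 calls and 12 without a fold threshold. The difference between lines gave 6 calls, 3 with limma on log2(RPKM + 1) and 10 without a fold threshold. The pseudocount lowers folds of genes at low RPKM, and the cause of the other changes was not tested. Leaving out each library gave 32 to 35 calls for IL-2 in WT cells (33 with all), 16 to 19 for KI against WT, 3 to 6 for the difference in response, and 5 to 8 for the difference between lines. Leaving out a Stat5a KI library at 4 hr leaves that group 1 library, assumed to vary like the other groups. With all 48 libraries, Cd274 at 4 hr reversed: KI against WT in the Stat5a line was 4.02, the difference in response 3.78, and the difference between lines -4.02, where the 47 libraries gave -0.85, -1.10, and 0.82, none called. Tigit for KI against WT at 4 hr in that line was called at 2.01, where the 47 libraries gave 0.34 and no call. The library added has 1028515 reads. With the replicate block, the counts were 34, 18, 4, and 6, and with a block within each genotype, chosen after seeing the data, 34 and 4. In the paired Stat5a WT libraries the block added Pdcd1 at 48 hr (1.05, adjusted p = 0.0101, against 1.00, adjusted p = 0.028) and changed no other call there. Besides the calls of Btla, Cd200, Ctla4, and Havcr2 given above, limma on log2(RPKM + 1) put 6 calls under the fold threshold: Havcr2 with IL-2 at 4 hr (-0.98 in Stat5a WT and -0.72 in Stat5b WT cells, the latter -0.89 with a pseudocount of 0.1), Lag3 in Stat5b WT cells at 4 hr (-0.95), Tox in WT cells at 24 hr (-0.90 and -0.93), and Pdcd1 in Stat5b KI cells at 24 hr (0.98). Some values without a call passed in other settings. Lag3 in Stat5b KI cells at 48 hr passed by limma on log2(RPKM + 0.1) (1.03) and Pdcd1 there without replicate 1 of the WT cells (1.01, adjusted p = 0.0489). Cd274 in Stat5a WT cells at 4 hr passed in 3 fits that leave out 1 library (1.01 to 1.36), its difference in response in 2 (-1.45 and -1.50), and its difference between lines in 2 (1.22 and 1.28). The difference in response passed in such fits for Ctla4 in the Stat5a line at 48 hr (3 fits) and for Tigit in the Stat5b line at 24 hr (2 fits), and the difference between lines for Tox at 4 hr (1.06), Ctla4 at 24 hr (1.03), and Lag3 at 48 hr (1.13), in 1 fit each. On RPKM scaled to mapped reads with a pseudocount of 1, the median of all genes at 48 hr in WT cells was 0.24 and 0.18 in the Stat5a and Stat5b lines, beside -0.12 and -0.13 in the count fit.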
